A study of Rattus norvegicus with 60 samples.

Results

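The genes for the intermediate filaments of neurons, Nefl, Nefm, Nefh, Ina and Prph, were followed in the spinal cord of 60 rats, with or without a contusion and with or without methylprednisolone (MP). These 5 genes were chosen by name, and their probe sets are those that the array annotation assigns to that symbol and to no other. Each gene had 1 probe set, and 14324 genes with a symbol were tested. All 5 passed the noise filter, which kept 27338 of 27342 probe sets and so hardly selected. The rats were female Long Evans animals of 8 to 9 weeks. SCI-EtOH rats had a weight-drop contusion of the thoracic cord after a laminectomy and received the vehicle, 70% ethanol, and SCI-MP rats had the same injury and received MP at 30 mg/kg in that vehicle. S-EtOH and S-MP rats were sham-operated, not injured, and received the vehicle or MP at 30 mg/kg in the vehicle, so that all 4 groups were given ethanol. In each group 2 rats were taken at 7 times after medication, the early ones of 2, 4, 6 and 8 h and the later ones of 12, 24 and 48 h, and 2 rats each of S-EtOH and SCI-EtOH at 0 h, which has no MP rats. MP is a synthetic glucocorticoid, and the study asked which genes it alters, restores or leaves changed after spinal cord injury (SCI). RNA came from a 5 mm piece of cord at the lesion, which holds neurons, glia, vessels, blood and invading cells together. In such a piece, fewer neurons and less RNA in each neuron cannot be told apart.

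Neurofilaments are the rope-like polymers that fill large axons and set their calibre, and with it the speed of conduction. The light chain Nefl forms the core, while the medium chain Nefm and the heavy chain Nefh carry long phosphorylated tails that project sideways from it. Alpha-internexin (Ina) co-assembles with this triplet in the central nervous system and is made early in neuronal development. Peripherin (Prph) is found in neurons whose axons leave the cord or the brain stem, among them motor neurons, and in sensory ganglion neurons. The proteins are carried down the axon from the cell body, where nearly all of their mRNA lies, and their release into cerebrospinal fluid and blood is a known sign of axonal damage.

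In the rat reference GRCr8, Nefl lies at chr15:46477330-46481203 and Nefm at chr15:46535857-46541161, with 54.7 kb between them. Nefh lies at chr14:84044428-84054413, Ina at chr1:255838129-255849680 and Prph at chr7:132096888-132101070. Only the promoters of Ina and Prph were found in the RefSeq promoter table of this build, which gives 250 bases before to 50 bases after a start on the sense strand. The starts of this table are not always those of the gene spans above: the Prph window lies wholly inside the span given for Prph, so its letters do not precede the start of that span. They are shown because the 5 genes moved together after injury, so that the letters of those available can be read beside the values. Capitals mark the TATA box letters TATAAA, the GC box letters GGGCGG on either strand (CCGCCC where it lies on the other strand) and the E-box letters CANNTG.
Ina, chr1:255837879-255838178, plus strand: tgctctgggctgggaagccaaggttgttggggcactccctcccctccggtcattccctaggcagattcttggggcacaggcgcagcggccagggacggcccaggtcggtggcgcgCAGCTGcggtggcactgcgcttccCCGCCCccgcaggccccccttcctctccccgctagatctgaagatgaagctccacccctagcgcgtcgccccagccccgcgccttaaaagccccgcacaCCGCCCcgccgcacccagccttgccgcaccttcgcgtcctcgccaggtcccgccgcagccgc
Prph, chr7:132097039-132097338, plus strand: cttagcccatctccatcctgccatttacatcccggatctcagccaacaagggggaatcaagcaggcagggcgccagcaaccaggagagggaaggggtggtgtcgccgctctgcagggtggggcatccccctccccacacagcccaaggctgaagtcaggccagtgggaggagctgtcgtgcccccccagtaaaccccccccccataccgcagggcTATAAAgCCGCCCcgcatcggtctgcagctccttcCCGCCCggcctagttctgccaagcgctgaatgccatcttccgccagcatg
Prph holds 1 TATA box and Ina 0, against 14.22% of the 33469 promoters in the table with at least 1. Each of them holds 2 GC boxes, which 33.06% of promoters have at least once. An E-box occurs once in the Ina window and not in that of Prph, and 72.1% of promoters have one. The letters AGAACA on either strand, known from elements bound by the glucocorticoid receptor, are in neither window and in 20.68% of promoters. These matches are letters only and say nothing of binding.

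The deposited values are log2 values normalized per array and per probe set, so they lie about 0 for each gene. They give differences between rats but no level of one gene against another. Pairs of rats of a group had a median correlation of 0.656 over probe sets, and the SCI-EtOH pair of 6 h stood apart with 0.161. Results that rest on several times are therefore also given without the 6 h arrays where that changes a count. The gap between the rats of a pair was largest for all 5 genes of the SCI-MP rats at 24 h, at 1.08 for Prph to 2.27 for Nefm. A gene was called when its adjusted p in limma, over all 14324 genes, was under 0.05.

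Nefl ranged in the 14 S-EtOH rats of 2 to 48 h from 0.31 through a median of 0.47 to 0.59. Its values in the 14 SCI-EtOH rats were −3.74 at the lowest, −1.97 at the median and −0.43 at the highest. Every injured rat without MP was thus below every sham rat. Nefm stood at 0.11, 0.38 and 0.60 in S-EtOH as the lowest, median and highest value, and at −4.06, −2.43 and −0.29 in SCI-EtOH. Nefh gave 0.14, 0.38 and 0.57 in S-EtOH against −3.34, −1.73 and −0.25 in SCI-EtOH, again without overlap. Ina, whose filaments join the triplet in central axons, gave 0.24, 0.45 and 0.73 in S-EtOH against −2.88, −1.42 and −0.40. Prph gave 0.13, 0.36 and 0.59 in S-EtOH against −2.46, −1.27 and 0.28 in SCI-EtOH. Here 1 injured rat, at 6 h, reached into the range of the sham rats. How many of all genes separate these groups without overlap was not counted. In SCI-MP the lowest, median and highest values were −3.69, −1.84 and −0.31 for Nefl, −4.17, −1.96 and 0.03 for Nefm, and −3.43, −1.58 and −0.02 for Nefh. For Ina they were −2.64, −1.05 and 0.01, and for Prph −2.32, −0.92 and 0.26. The highest SCI-MP rat thus reached the lowest S-EtOH rat for Prph alone. The S-MP rats lay near the S-EtOH rats, with medians of 0.22 for Nefl, 0.46 for Nefm, 0.31 for Nefh, 0.40 for Ina and 0.33 for Prph.

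**Figure D1:**
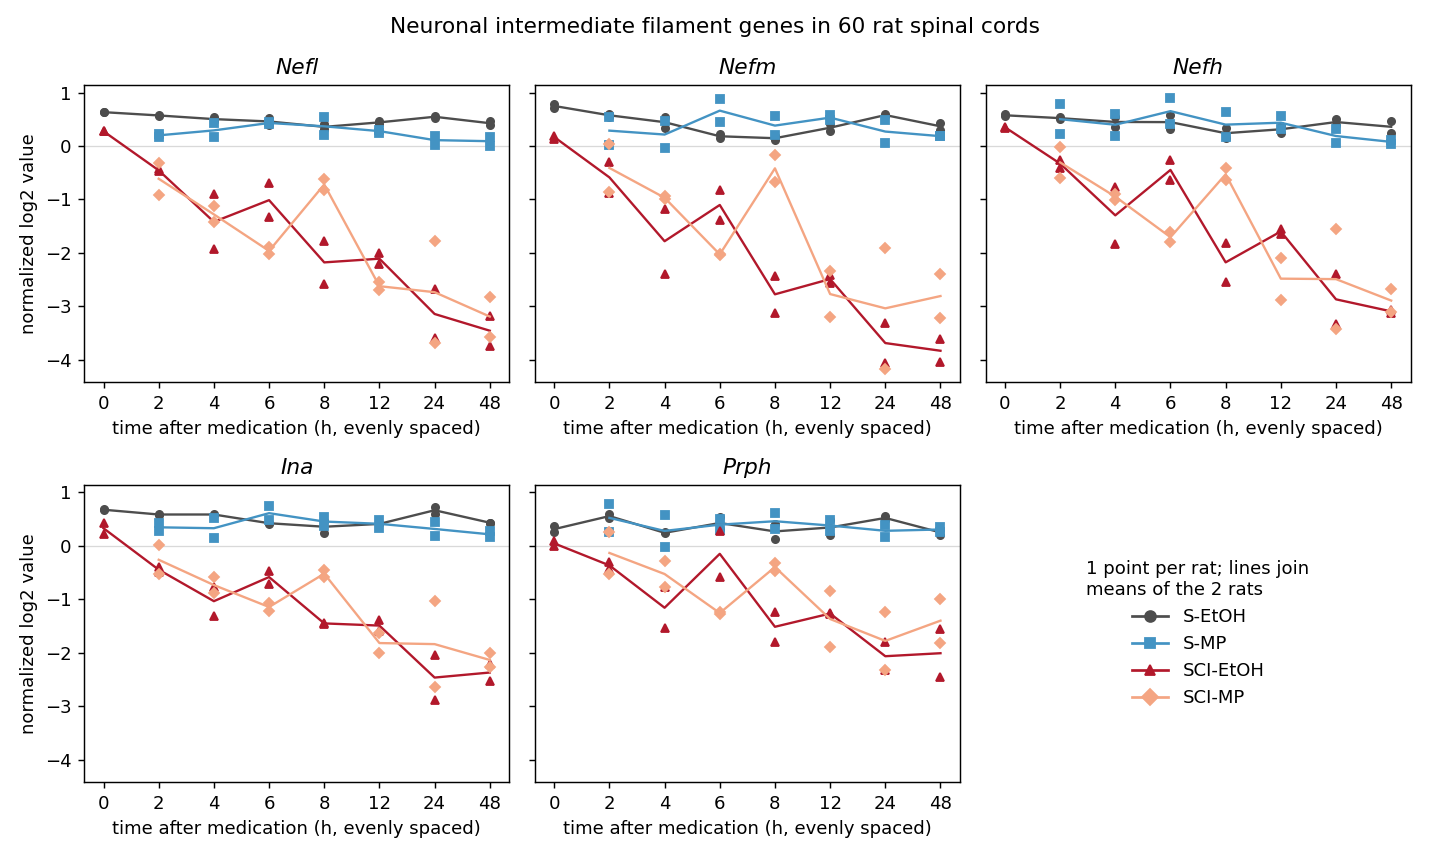
Normalized log2 value (vertical axis, no unit, centred per probe set) of each gene in each of 60 rats against time after medication in h (horizontal axis, times evenly spaced), each point a rat, in 4 groups whose lines join the pair means. The sham rats stay between −0.04 and 0.89, and from 2 h on the pair means of both injured groups lie below those of the sham groups. The SCI-EtOH rats of 0 h and single later injured rats lie within that sham range. The 2 SCI-MP rats of 8 h lie above those of 6 and 12 h in every panel.

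Injury without MP lowered all 5 genes, and they were among the genes that fell the most. Over the mean of 7 times the SCI-EtOH rats had 15.4% of the sham value for Nefm, 18.4% for Nefl, 23.6% for Nefh, 26.8% for Ina and 33.2% for Prph. Of 14324 genes, Nefm had the largest fall, Nefl the second and Prph the fall of rank 43. All 5 were called lower, against 62.7% of all genes called in either direction and 27.5% called lower, and the median over all genes was 0.04 on the log2 scale against −2.08 over the 5. On that scale Nefm fell by 2.70 (standard error 0.16, adjusted p = 5.26e-16 from limma) and Nefl fell by 2.44 (0.13, adjusted p = 7.09e-17). For Nefh the difference was −2.08 (0.14), for Ina −1.90 (0.10) and for Prph −1.59 (0.13), with adjusted p-values of at most 7.82e-13. Here, and wherever a standard error is given, n is 2 rats per group and time, and the spread was estimated over all 60 arrays. The p-values measure the spread between rats of a group. Neurons as a whole moved the same way: of 13 neuron markers 12 were lower, and their median difference was −1.08. All 5 motor neuron markers measured, among them the choline transporter Slc5a7 (−2.26), the lectin Chodl (−2.01) and the acetylcholine vesicle transporter Slc18a3 (−1.55), were lower too, with a median of −1.55. The part of neuron loss in the result was not tested.

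The fall deepened with time. At 0 h the Nefm values of the SCI-EtOH rats were 0.20 and 0.14, and those of the S-EtOH rats 0.79 and 0.71. Both injured rats were below both sham rats for all 5 genes, with differences of −0.22 for Nefh to −0.58 for Nefm. The share of all genes with such a separation was not counted. None of the 5 was called in limma, none had an unadjusted p under 0.05, and the methods' analysis of variance also called 0. With 0 h fitted alone 2 were called lower, and after quantile normalization 3. In the limma fit of all arrays 0.0419% of all genes were called at that time. At 2 h, 1 of the 5 was called, Ina at −1.03 (adjusted p = 0.0213), against 5.25% of all genes. Nefl was at −1.03 (adjusted p = 0.0834) and Nefm at −1.16 (adjusted p = 0.106). At 4 h all 5 were called lower, against 15.6% of all genes in either direction, and Nefm, at −2.23, had the largest fall of all. At 6 h Nefl (−1.47), Nefm (−1.29) and Ina (−1.01) were called, 3 of 5 against 11% of all genes. The 2 SCI-EtOH rats of that time are the pair that stood apart, and Prph was at 0.28 in the one and −0.58 in the other. The call at 2 h was lost without any 1 of its 4 arrays, and those at 6 h without SCI-EtOH duplicate 1 or either S-EtOH rat. All 5 were called lower at 8 h, against 24.4% of all genes, at 12 h against 31.6%, at 24 h against 37.4% and at 48 h against 34.9%.

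By 24 h Nefm was at −4.06 and −3.31 in the SCI-EtOH rats and at 0.60 and 0.56 in the S-EtOH rats, a remainder of 5.20%. At 48 h it was at −3.62 and −4.04 against 0.30 and 0.44, a remainder of 5.45%. Its fall was the largest of all genes at 4, 8, 24 and 48 h. Nefl kept 6.78% of the sham value at 48 h, Nefh 9.13%, Ina 14.3% and Prph 20.9%. The change over time was tested as the difference at 24 and 48 h minus that at 2, 4 and 6 h. It was −2.67 for Nefm (standard error 0.39, adjusted p = 2.31e-06), −2.31 for Nefl, −2.22 for Nefh, −1.75 for Ina and −1.46 for Prph, and all 5 were called lower, against 31.4% of all genes in either direction. Quantile normalization left 2 of these 5 calls, Nefl at −0.96 and Nefm at −1.10. That step gives every array the same distribution. In values centred per probe set it can also remove differences in spread that belong to the groups, and that part was not tested. In the methods' test, an analysis of variance at each time with Tukey's test, the 5 genes gave 0 calls at 2, 4 and 24 h, 1 each at 6 and 8 h and 4 each at 12 and 48 h.

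**Figure D2:**
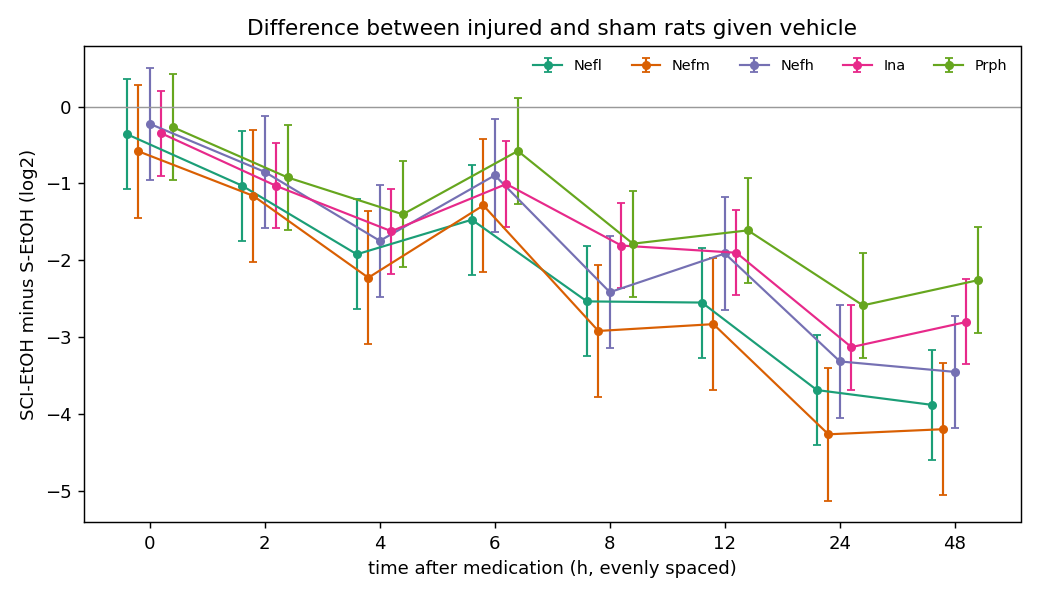
Difference of SCI-EtOH minus S-EtOH on the log2 scale (vertical axis) for each gene against time after medication in h (horizontal axis, times evenly spaced), with 95% confidence intervals from the limma fit, 2 rats per group and time. Nefm goes from −0.58 at 0 h to −4.27 at 24 h, and Prph shows the smallest fall of the 5 from 4 h on.

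The values of the 5 genes did not fall equally. Differences between 2 genes within an array do not depend on that array's overall level, and were compared between SCI-EtOH and S-EtOH with an exact two-sided permutation test within times, adjusted over 10 pairs. Nefm fell further than each of the others, by 0.26 more than Nefl (adjusted p = 0.00248, 6 of 7 times), and against Prph the difference was −1.11 (adjusted p = 7.14e-05, 7 of 7 times). Against Ina it was −0.80 and against Nefh −0.61. Nefl minus Prph came to −0.85, Nefl minus Ina to −0.54, Nefl minus Nefh to −0.36, Nefh minus Prph to −0.49 and Ina minus Prph to −0.31. In 9 of 10 pairs the difference passed, and in the pair of Nefh and Ina it did not, at −0.18 (exact permutation p = 0.0832). Pairs of other genes were not tested, so this count has no background share and is no trait shown to be particular to these genes. In these values the order from the deepest to the shallowest fall was therefore Nefm, Nefl, then Nefh and Ina, whose falls did not differ beyond their spread, then Prph. Each gene was read by 1 probe set. Whether the probe sets respond equally to a change of RNA was not tested, so this is an order of array values.

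Across all 60 arrays the 5 genes rose and fell together, with Pearson correlations of 0.95 for Ina and Prph to 0.991 for Nefl and Ina. These arrays share the injury and the tissue piece. Between the 2 rats of a pair, where the condition is the same, the differences of 2 genes still had correlations of 0.571 for Ina and Prph to 0.916 for Nefl and Nefm over 30 pairs. Nefl and Nefm are the pair that lies side by side on chromosome 15, while Nefm and Nefh, on different chromosomes, had 0.907. A part of gene position in these correlations was not tested. With the mean of the 13 neuron markers the correlation over 60 arrays was 0.938 for Prph to 0.989 for Nefl. No p is given for these, as the arrays share conditions.

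The neurofilament genes stayed low after injury when MP was given, with 8 h apart. Compared with S-EtOH, all 5 were called lower in SCI-MP at 2~6 h, against 34.8% of all genes in either direction. Nefl was at −1.80 there (28.8% of the S-EtOH value), Nefm at −1.54, Nefh at −1.46, Ina at −1.24 and Prph at −1.05. All 5 were called lower again at 12 h, against 26.1% of all genes, with Nefm at −3.11 and Nefl at −3.06, and at 24~48 h, against 43.1%, with Nefl at −3.45 (9.15%) and Nefm at −3.40 (9.50%). At 8 h only Nefl (−1.08, adjusted p = 0.049) and Ina (−0.88, adjusted p = 0.0369) were called, against 8.9% of all genes, and without any 1 of the 4 arrays of this comparison 0 were. Nefm was at −0.56 at 8 h (95% interval −1.43 to 0.30), Nefh at −0.77 and Prph at −0.67. The late minus early change of the injury difference under MP, SCI-MP minus S-MP, was −1.63 for Nefm, −1.47 for Nefl, −1.32 for Nefh, −1.11 for Ina and −0.84 for Prph. All 5 passed, against 24.8% of all genes, but Prph (adjusted p = 0.0421) did not in 12 of 20 fits without 1 array, and 0 of the 5 passed after quantile normalization, where the values were −0.48 for Nefm to −0.02 for Nefh.

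MP in injured rats went with higher neurofilament values at 8 h. At that time Nefm was at −0.17 and −0.67 in the SCI-MP rats and at −3.12 and −2.43 in the SCI-EtOH rats. Nefl was at −0.61 and −0.83 against −2.57 and −1.78, and Nefh at −0.42 and −0.64 against −2.54 and −1.81. Ina was at −0.46 and −0.59 against −1.46 and −1.44, and Prph at −0.33 and −0.47 against −1.80 and −1.23. For each gene both MP rats were above both rats without MP, and the share of all genes with such a separation was not counted. The difference was 2.36 for Nefm (standard error 0.42, adjusted p = 0.000367), the largest rise of all 14324 genes, 1.65 for Nefh (0.36, adjusted p = 0.0035), 1.46 for Nefl (0.35, adjusted p = 0.00864), 1.12 for Prph (0.34, adjusted p = 0.0392) and 0.93 for Ina (0.27, adjusted p = 0.0326). All 5 were called higher, against 6.65% of all genes called in either direction. The values of the SCI-MP rats on either side of this time were low: Nefm was at −2.04 and −2.01 at 6 h and at −2.33 and −3.20 at 12 h. In the SCI-EtOH rats Nefm was at −1.38 and −0.82 at 6 h and at −2.42 and −2.56 at 12 h, so this group also changed between 6 and 8 h. The call count fell to 1 without SCI-EtOH duplicate 1 or SCI-MP duplicate 1 of 8 h, to 3 without SCI-MP duplicate 2, with array weights or after quantile normalization, and to 4 without SCI-EtOH duplicate 2. Among the 4 fits without 1 array, Nefm was called in 4, Prph in 1 and Ina in 0. The methods' test called 1 of the 5, and with the difference of the injured from the sham rats at 0 h added none was called, Nefm being at 1.78 (adjusted p = 0.23). That 0 h difference holds no MP rats, shifts each gene by its own value and adds its spread. The sum therefore cannot decide whether the MP difference is present.

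Some other markers of the same arrays moved with this. In this comparison limma called 6.65% of all genes in either direction. At 8 h the mean of the 13 neuron markers was −0.29 and −0.46 in the SCI-MP rats and −1.0 and −0.88 in the SCI-EtOH rats. In SCI-MP it was −0.84 and −1.05 at 6 h and −1.38 and −1.39 at 12 h. In SCI-EtOH it was −0.45 and −0.20 at 6 h and −1.01 and −1.17 at 12 h. Of these 13 markers 3 were called higher with MP at 8 h, Stmn2 (1.15), Snap25 (1.06) and Thy1 (0.96), with a median of 0.64. Elavl3 of the same list was at −0.31 and not called. Of 5 motor neuron markers 3 were higher, Slc5a7 (1.69), Chodl (1.28) and Slc18a3 (0.96). Of 6 neutrophil markers 4 were lower, with a median of −2.10, and the mean of that list was 0.58 and 0.48 in the SCI-MP rats against 2.22 and 2.11 in the SCI-EtOH rats. Of 4 endothelial markers 2 were lower, Cldn5 (−1.13) and Cdh5 (−0.54), and the mean of that list was −0.27 and −0.26 in the SCI-MP rats against 0.22 and 0.65. Of 7 microglia and macrophage markers Itgam (−1.30) was lower, with list means of −0.26 and −0.21 against 0.32 and 0.47. The mean of the 3 erythrocyte markers, of which limma called 0, was 0.73 and 0.41 against 1.24 and 1.44. Of 5 interneuron markers 1 was higher, Slc6a5 (0.94). Called were 0 of 5 astrocyte, 0 of 5 oligodendrocyte, 0 of 2 Schwann cell and 0 of 5 sensory ganglion neuron markers. The part of the content of these cells in the 4 pieces in the result was not tested.

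At 2~6, 12 and 24~48 h limma called none of these genes with MP in injured rats, while some of the alternatives did. At 2~6 h the differences of SCI-MP minus SCI-EtOH were −0.32 for Nefl to 0.02 for Nefm, and limma called 0 of 5, with 0 at an unadjusted p under 0.05, against 26.6% of all genes called. After quantile normalization Nefl was called lower there (−0.42, adjusted p = 0.0271). At 6 h both SCI-MP rats were below both SCI-EtOH rats for all 5 genes. Nefm was at −2.04 and −2.01 against −1.38 and −0.82, and Nefh at −1.61 and −1.80 against −0.26 and −0.64. That SCI-EtOH pair is also the pair that stood apart. At 4 h both SCI-MP rats were above for Nefm and Prph, and at 2 h the groups overlapped for all 5. MP at 6 h alone was not tested in limma, and such separations were not counted over all genes. At 12 h limma called 0 of 5, with Nefh at −0.88 (adjusted p = 0.0901) as the 1 gene under an unadjusted p of 0.05, against 16.2% of all genes, and the methods' test called 1. With 12 h fitted alone, Nefl (−0.51, adjusted p = 0.0259) and Nefh (adjusted p = 0.0419) were called lower. At 24~48 h limma called 0 of 5, with Nefm at 0.84 (adjusted p = 0.0582) and Ina at 0.43 under an unadjusted p of 0.05, against 13.9% of all genes. The SCI-MP rats of 24 h differed from each other by more than this: Nefm was at −4.17 in one and −1.90 in the other, and without the lower of them all 5 genes were called higher at 24~48 h. Over the mean of 7 times Nefm alone was called, 0.54 higher with MP (standard error 0.16, adjusted p = 0.00662), 1 of 5 against 42.1% of all genes. The other 4 were at 0.07 for Nefh to 0.24 for Prph. With the difference of the injured from the sham rats at 0 h added, the value for Nefm turned to −0.036 (adjusted p = 0.997). The 0 h difference, −0.58 for Nefm (standard error 0.42), holds no MP rats and adds its own spread. This sum therefore cannot decide whether the MP difference is present. Nefm was no longer called without the 8 h arrays, and 3 genes were called without the 6 h arrays.

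The 8 h difference was compared with that at the other 6 times, a test added after the values were seen. It was larger by 2.11 for Nefm (standard error 0.46, adjusted p = 0.00719), 1.85 for Nefh (0.39, adjusted p = 0.00587) and 1.59 for Nefl (0.38, adjusted p = 0.0147), 3 of 5 against 3.67% of all genes. Ina (0.85) and Prph (1.03) did not pass. Quantile normalization, or leaving out SCI-EtOH duplicate 1 or SCI-MP duplicate 1 of 8 h, brought this count to 0. The MP difference was also set against that in sham rats. Over 7 times the interaction was 0.56 for Nefm (adjusted p = 0.0653) and 0.08 to 0.31 for the others. limma called 0 of 5, with 2 at an unadjusted p under 0.05, against 25.7% of all genes, and 2 were called without the 6 h arrays. At 8 h alone it was 2.12 for Nefm (standard error 0.60, adjusted p = 0.0353), 1 of 5 called against 4.45% of all genes, and that call was lost in 7 of the 8 fits without 1 of the arrays involved.

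**Figure D3:**
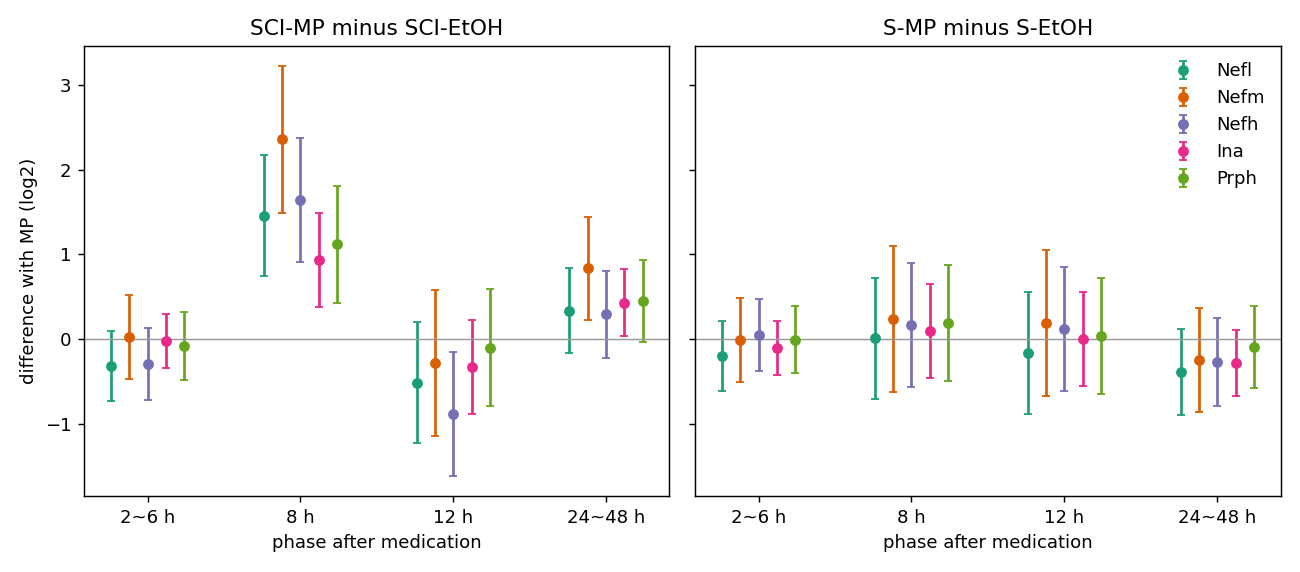
Difference with MP on the log2 scale (vertical axis) in injured rats (left) and sham rats (right) by phase after medication (horizontal axis), with 1 point per gene and 95% confidence intervals from the limma fit. In injured rats the intervals of all 5 genes lie above 0 at 8 h, and in sham rats every interval includes 0.

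Within arrays of injured rats, Nefm was higher with MP against both of its partners in the triplet. This comparison was added after the data were seen, with 10 pairs in injured and 10 in sham rats and p-values adjusted over the 20. Pairs of other genes were not tested, so the counts of pairs have no background share. Nefm minus Nefl within an array was −0.65 at the lowest, −0.43 at the median and 0.18 at the highest in the 14 SCI-EtOH rats, and −0.50, 0.18 and 0.44 in the 14 SCI-MP rats. The 2 groups overlap. At each of the 7 times the mean of the SCI-MP rats was the higher one, by 0.03 at 6 h to 0.90 at 8 h and by 0.45 over all times (exact permutation test, adjusted p = 0.00414). Nefm minus Nefh gave −1.13, −0.60 and −0.04 in SCI-EtOH and −0.74, −0.16 and 0.28 in SCI-MP, higher with MP by 0.48 over all times and at 7 of 7 times (adjusted p = 0.00386). The other 8 pairs in injured rats did not pass, with Nefl minus Nefh at 0.03 (adjusted p = 0.865) and Nefm minus Ina at 0.35 (adjusted p = 0.141). In sham rats Nefm minus Nefl was also higher with MP, by 0.20 (adjusted p = 0.0101, 6 of 7 times), and whether the differences in injured and sham rats differ was not tested. Without the 8 h arrays the Nefm differences in injured rats were 0.38 against Nefl and 0.44 against Nefh, and both passed. They passed as well after quantile normalization and without any 1 array. At 0 h Nefm minus Nefl was −0.08 and −0.14 in SCI-EtOH against 0.15 and 0.09 in S-EtOH, and Nefm minus Nefh −0.17 and −0.20 against 0.19 and 0.16. The SCI-EtOH rats were thus below the sham rats in both measures before any MP rat was taken, and no MP rats of 0 h were there to set beside them.

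**Figure D4:**
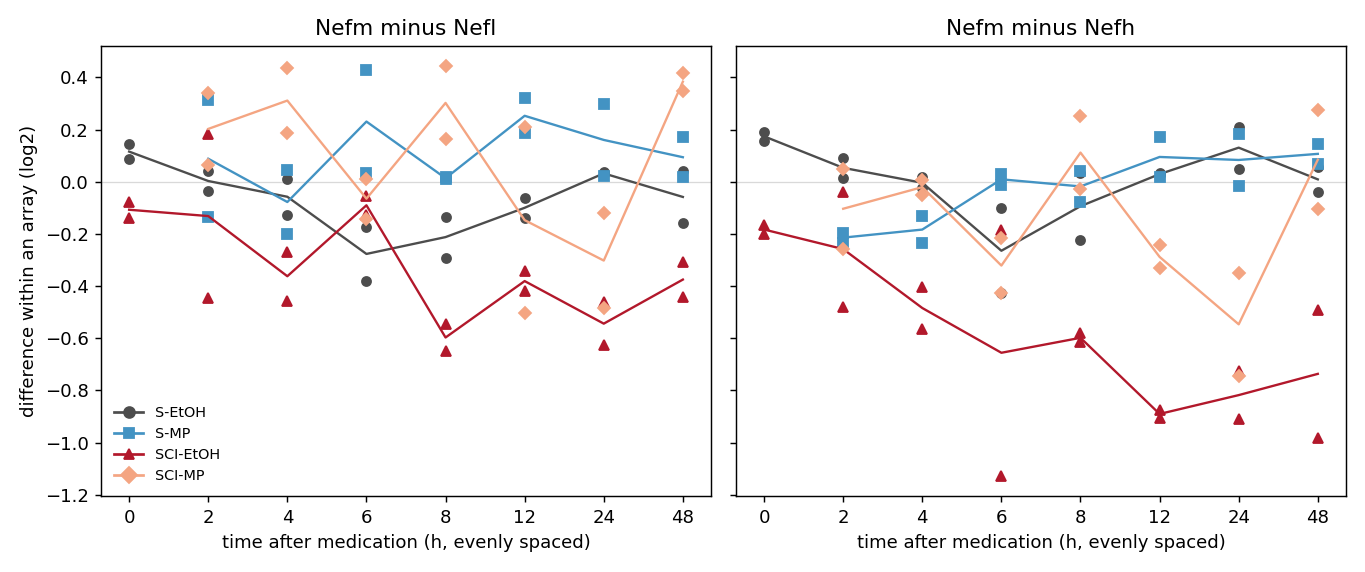
Difference within an array of Nefm minus Nefl (left) and Nefm minus Nefh (right) on the log2 scale (vertical axis) against time after medication in h (horizontal axis, times evenly spaced), each point a rat, in 4 groups whose lines join the pair means. The SCI-MP mean lies above the SCI-EtOH mean at all 7 times in both panels.

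In sham rats MP alone changed none of the 5 genes past the threshold. For Nefm at 8 h the S-MP rats were at 0.56 and 0.21 and the S-EtOH rats at 0.11 and 0.18. Over the mean of 7 times the difference of S-MP minus S-EtOH was −0.22 for Nefl (95% interval −0.49 to 0.05), −0.11 for Ina (−0.32 to 0.10), −0.02 for Nefm (−0.34 to 0.31), −0.02 for Nefh (−0.29 to 0.26) and 0.00 for Prph (−0.26 to 0.26). limma called 0 of 5, with 0 at an unadjusted p under 0.05, against 9.85% of all genes. It also called 0 of 5 at 2~6 h (1.17% of all genes), 8 h (0.691%), 12 h (0.559%) and 24~48 h (0.154%), each with 0 at an unadjusted p under 0.05, and the methods' test called 0 at 8 and 12 h. Within arrays, where the spread is smaller, Nefl shifted against the other 4. Nefl minus Nefh was lower with MP by 0.20 over all times and at 7 of 7 times (exact permutation test, adjusted p = 0.00464), Nefl minus Prph by 0.22 (adjusted p = 0.00414), Nefl minus Nefm by 0.20 (adjusted p = 0.0101) and Nefl minus Ina by 0.11 (adjusted p = 0.00632). The other 6 pairs in sham rats did not pass, and that of Nefl and Ina did not after quantile normalization. After quantile normalization Nefl (−0.53) and Ina (−0.40) were also called lower over the mean of 7 times.

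Genes that make, move or break down neurofilaments changed less with injury without MP than the filament genes, which had a median of −2.08. Of 16 measured partners, which include the kinases of the side tails, the motors of slow transport and the calpains that cut neurofilaments, 8 were lower and 4 higher over the mean of 7 times, with a median of −0.20. Of all genes 62.7% were called in that comparison, of which the lower ones make up 27.5% of all genes, and the counts of this and the other lists stand against that background. The unconventional myosin Myo5a fell by 0.88, the kinesin heavy chain Kif5c fell by 0.84 and the kinase Gsk3b fell by 0.57 on the log2 scale. The calpain Capn2 rose by 0.16 and the chaperone Hspb1 by 0.37. Microtubule genes of neurons were lower in 8 of 8 cases, with a median of −1.04, led by Stmn2 (−1.61), which binds tubulin at growth cones, and the microtubule-associated Map1a (−1.43) and Map2 (−1.19). Intermediate filaments of other cells split: 6 of 10 were higher and 3 lower, with a median of 0.32. Nestin (Nes, 1.74), which marks progenitors and reactive cells, lamin A (Lmna, 1.27) of the nuclear envelope and vimentin (Vim, 0.57) rose, while the astrocyte filament Gfap fell by 0.37. Of 11 genes known from cut axons and regeneration 5 were higher and 3 lower, with a median of 0.13. The transcription factor Atf3 rose by 2.81 and the neuropeptide Npy by 1.48, and Stmn2, which is on this list too, fell. With MP at 8 h in injured rats, where 6.65% of all genes were called, 0 of the 16 partners were lower and 1 higher (Myo5a, 0.67), a share near that of all genes. Of the others, 3 of the 8 microtubule genes were higher, 2 of the 10 other filament genes were lower (Nes, −1.35, and Lmna, −0.63) and 1 higher (Synm, 1.06), and 2 of the 11 axotomy genes were higher (Stmn2, 1.15, and Sox11, 0.63).

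Markers of other cells moved in both directions over the same mean of 7 times, again with 62.7% of all genes called. Interneuron markers were lower in 5 of 5 cases (median −1.49), led by the glycine transporter Slc6a5 (−1.88). Astrocyte markers were lower in 5 of 5 cases (median −0.66), led by the glutamate transporter Slc1a2 (−1.09), and oligodendrocyte markers in 3 of 5 with 1 higher (median −0.19), led by the myelin gene Mog (−0.45). Higher were 4 of 6 neutrophil markers (median 1.31), led by the chemokine receptor Cxcr2 (2.22), 3 of 3 erythrocyte markers (median 1.47), led by Alas2 (2.42), 4 of 4 endothelial markers (median 0.54), led by Cdh5 (0.74), and 3 of 7 microglia and macrophage markers (median 0.08), led by Cd68 (1.11). Of the markers of sensory ganglion neurons, which also use Prph, 5 were measured, with 1 higher, P2rx3 (0.13), and 1 lower, Mrgprd (−0.11), and a median of 0.00. Of the Schwann cell markers 2 were measured and Pmp22 (0.28) was higher. Single neuron markers fell by more than Prph did, among them Syp (−1.70), Snap25 (−1.62) and Stmn2 (−1.61). Against the mean of the list, Nefm minus the neuron mean of the same array was −0.07 to 0.31 in S-EtOH (median 0.18), −2.47 to −0.08 in SCI-EtOH (median −1.43), −2.39 to 0.18 in SCI-MP (median −0.93) and −0.16 to 0.46 in S-MP (median 0.17). For Prph the medians were 0.15 in S-EtOH, −0.35 in SCI-EtOH and −0.02 in SCI-MP.

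**Figure D5:**
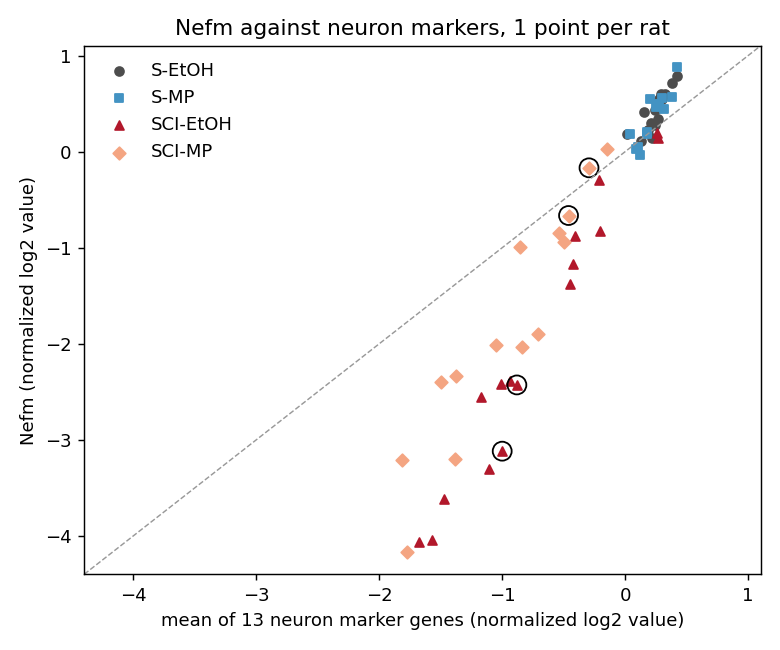
Nefm (vertical axis, normalized log2 value) against the mean of 13 neuron marker genes (horizontal axis, normalized log2 value), with 1 point per rat in 4 groups, a dashed line of equality and circles around the injured rats of 8 h. The injured rats run down a line steeper than equality, and the circled SCI-MP rats of 8 h, at −0.17 and −0.67 for Nefm, sit near its upper end.

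The genes with the most similar course over the 60 arrays were ranked by Pearson correlation, with the 5 filament genes left out. Nearest to Nefl were the vesicle protein Vamp1 (0.989), Lynx1 (0.988), Epb41l3 (0.988), the sodium channel subunit Scn4b (0.987) and the calcium channel subunit Cacna2d3 (0.986). Nearest to Nefm were Epb41l3 (0.979), the synaptotagmin Syt2 (0.978), Adam23 (0.977), Scn4b (0.976) and Cend1 (0.974). For Nefh they were Syt2 (0.989), Thy1 (0.986), the calcium pump Atp2b2 (0.985), Scn4b (0.985) and the complexin Cplx1 (0.984). For Ina they were the potassium channel subunit Kcnab2 (0.988), the synapsin Syn2 (0.986), Syt2 (0.986), Scn4b (0.985) and the glycine receptor Glra1 (0.985). For Prph they were Syt2 (0.956), Scn4b (0.955), Kcnab2 (0.951), Epb41l3 (0.951) and Cend1 (0.949). Scn4b was among the 5 nearest of every filament gene and fell by 2.11 over the mean of 7 times. All of these arrays share the injury, and no p is given.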

How the data were processed

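RNA of 60 spinal cord pieces was hybridised to 60 Rat Gene 1.0 ST arrays, 2 rats per group and time. The values deposited by the authors are log2 values from RMA, which GeneSpring then normalized within each chip and for each gene. The reference point of this centring is not stated in the sources used, so differences between rats were used and no levels of genes. The number of arrays limits the precision.

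Of 27342 probe sets, 15097 had 1 gene symbol, 323 several and 11922 none, and 15067 symbols were matched by gene ID to the RefSeq table of GRCr8. Probe sets were kept (27338) when the coefficient of variation of linear values was under 50% in at least 16 of 30 pairs of rats, and probe sets of a gene were averaged, which left 14324 genes. The paper gives this rule but reports fewer probe sets kept, so its filter was not reproduced. The methods' test was run on the wider set used here. All arrays entered 1 limma fit (version 3.58.1, R 4.3.3) with a mean for every combination of group and time and 30 residual degrees of freedom, with Benjamini-Hochberg adjustment at 0.05 over all genes and 95% intervals. Means over times weighted 7 times equally. Pairs of genes were compared by exact two-sided permutation within times (279936 permutations, smallest p 7.14e-06). The scripts were tested on simulated data.

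The members, lists and tests were chosen with earlier results of these data known. All 5 members were named, the 3 called genes of each list that changed most with injury and the 5 nearest patterns of each member. Other list genes (Hspb1, Capn2, Gfap, Mrgprd and those named with MP at 8 h) were named after their values were seen. The tests at 8 h against other times or sham rats and those of gene pairs under MP were added after the data were seen. Alternatives were quantile normalization, array medians set to 0, no noise filter, array weights, a replicate block, each time fitted alone, the methods' analysis of variance with Tukey's test, fits without 6 h or 8 h, the 0 h difference added to the MP difference, and leaving out each array.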

Additional observations from a re-analysis of the deposited data

Results flagged for a closer look

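The injury difference of each of the 5 genes changed with time by a limma test of the difference itself, 24 and 48 h minus 2, 4 and 6 h. Without MP the change was −2.31 for Nefl, −2.67 for Nefm, −2.22 for Nefh, −1.75 for Ina and −1.46 for Prph on the log2 scale. With MP it was −1.47 for Nefl, −1.63 for Nefm, −1.32 for Nefh, −1.11 for Ina and −0.84 for Prph, with adjusted p = 0.0421 for Prph, which did not pass in 12 of 20 fits without 1 array. Whether the changes with and without MP differ from each other was not tested.

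The MP difference in injured rats was larger at 8 h than at the other 6 times for Nefl (1.59), Nefm (2.11) and Nefh (1.85), and larger in injured than in sham rats at 8 h for Nefm (2.12). Each rests on 2 rats per group at 8 h. Markers of neurons, neutrophils and endothelium of the same arrays moved too, and their part in these values was not tested.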

How the results depend on the processing

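Counts of called genes among the 5 are given with the count as reported in parentheses. Quantile normalization gives all arrays the same spread about the centre of each probe set, so its counts can change for that reason too, which was not tested. After quantile normalization the injury difference had 3 (0) at 0 h, 5 (1) at 2 h and 5 (3) at 6 h, and its change over time 2 (5) without and 0 (5) with MP. The MP difference in injured rats had 2 (1) over the mean, 1 (0) at 2~6 h, 3 (5) at 8 h and 0 (3) at 8 h against other times. That in sham rats had 2 (0) over the mean, at 2~6 h and at 24~48 h, and the interaction 3 (0). For SCI-MP minus S-EtOH at 8 h the count was 1 (2) with medians set to 0, with the replicate block, with each time alone and in the methods' test. Array weights gave 5 (1) at 2 h and 0 (3) at 6 h for injury, 3 (5) for MP at 8 h and 3 (1) for its interaction. With each time alone, injury had 2 (0) at 0 h and 2 (1) at 2 h, MP 2 (0) at 12 h and the interaction at 8 h 0 (1). The methods' test gave, for injury, 0 (1) at 2 h, 0 (5) at 4 h, 1 (3) at 6 h, 1 (5) at 8 h and 0 (5) at 24 h, and for MP 1 (5) at 8 h and 1 (0) at 12 h. Without 6 h, MP over the mean had 3 (1) and the interaction 2 (0), and without 8 h, chosen after seeing the data, MP over the mean had 0 (1). With the 0 h difference added, MP had 0 (1) over the mean, where Nefm turned to −0.036 (adjusted p = 0.997), and 0 (5) at 8 h. That sum brings in sham rats and the spread at 0 h but no MP rats of 0 h, so it cannot decide whether the MP difference is present. The causes were not tested.

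Leaving out 1 array, injury had 5 to 5 over the mean and at 8, 12, 24 and 48 h, 0 to 0 at 0 and 2 h, 3 to 5 at 4 h (3 without SCI-EtOH duplicate 2) and 0 to 3 at 6 h (0 without SCI-EtOH duplicate 1 or either S-EtOH rat). SCI-MP minus S-EtOH had 0 to 0 at 8 h. MP in injured rats had 1 to 3 over the mean (3 without SCI-MP 24 h duplicate 1, 2 without SCI-EtOH 24 h duplicate 2 or SCI-MP 12 h duplicate 2), 1 to 4 at 8 h, 0 to 5 at 24~48 h and 0 to 5 at 8 h against other times (5 without SCI-MP 24 h duplicate 2). The interaction had 0 to 3 over the mean (3 without SCI-MP 24 h duplicate 1) and 0 to 2 at 8 h, and the change over time with MP 4 to 5. Pairs with a difference numbered 9 to 10 for injury, 2 to 3 for MP in injured and 4 to 5 for MP in sham rats.

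Duplicate numbers did not pair the rats: 11 of 43 comparisons had a correlation over 0.1 (−0.57 to 0.43). The replicate block changed no other count by over 1.5 times. Each gene has 1 probe set, so fits of single probe sets could not differ.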
